A study of Mus musculus with 10 samples.

Results

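The 10 genes described here, Fhl2, Tmsb15b1, Gje1, Bok, Car14, Aif1l, Abcc5, Baz2b, Brd8 and Cdca7, were chosen by one rule: in each of 2 separate expression tables from the embryonic mouse cortex, all Chd8 knockdown libraries lay above, or all lay below, the whole range of the controls, and the direction matched between the tables. They are 10 of the 23235 gene symbols that each table holds, and 10 of the 1210 genes that met the rule among 10827 genes whose mean reached 1 FPKM in both tables (FPKM, sequenced fragments scaled to the length of the transcript and to the mapped fragments of a library). Fhl2, Tmsb15b1, Gje1 and Bok were higher in knockdown libraries, and Car14, Aif1l, Abcc5, Baz2b, Brd8 and Cdca7 were lower. Because the knockdown and control values themselves selected these genes, their levels and fold changes are given as a description, with no test.

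CHD8 is a chromatin remodeler that binds promoters and is known as a regulator of beta-catenin targets and of cell cycle genes, and loss of one of its gene copies in people is linked to autism. In the fetal cortex, radial glia divide along the ventricle and give rise to intermediate progenitors and to neurons, which migrate outward. The 10 genes do not form a single pathway: they code for a LIM scaffold protein, actin-binding proteins, a connexin, a BCL2 family member, a carbonic anhydrase, an ABC transporter, bromodomain proteins of chromatin complexes and a partner of a DNA methylation remodeler.

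Each library was made from GFP-positive cells, sorted at embryonic day 15 from the pooled cortices of 3 to 5 embryos whose radial glia had been electroporated in utero at embryonic day 13. All libraries therefore share the operation, the plasmid delivery and the sort, and knockdown libraries carried a short hairpin RNA (shRNA) against Chd8 in place of a control shRNA, so that the target was lowered and not deleted. The strain, the sequence of the control shRNA and the sex of the embryos were not given in the sources used here. The shRNA1 set, called so after the name of its table, holds 3 control and 3 knockdown libraries, replicates 10, 11 and 12 of each group, which the labels mark as new. The shRNA2 set holds 2 control and 2 knockdown libraries, replicates 1 and 2 of each group. The hairpin, the labelled series of libraries and the table all change from one set to the other, so their parts cannot be told apart, and levels were compared only within a table. Values are listed below in the order of the replicate numbers. Since the libraries are bulk samples, fewer cells of a type and less RNA per cell cannot be told apart for any gene here.

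Chd8 itself was at 3.59, 3.30 and 4.02 FPKM in the shRNA1 controls and at 2.09, 1.84 and 1.92 FPKM with knockdown. With shRNA2 it was at 12.4 and 13.8 FPKM in controls and at 8.55 and 9.23 FPKM in knockdown libraries. Every knockdown library was below every control of its set. The log2 fold change, the difference of mean log2(FPKM + 1), was −0.65 in the shRNA1 set (SE 0.117, limma adjusted p = 0.0213) and −0.51 in the shRNA2 set (SE 0.233, limma adjusted p = 0.152). The shRNA1 call was lost without control replicate 10 (limma adjusted p = 0.0603) or 12 (0.0648), or without knockdown replicate 10 (0.059), 11 (0.0829) or 12 (0.053). Absolute depth is unknown. Relative depth was only estimated, from the commonest ratio to a control library among genes with values under 0.5 FPKM in both. In the shRNA1 set the estimate was 0.956 to 1.39 relative to control replicate 10. For both shRNA2 knockdown libraries it was 0.527 relative to control replicate 1. Few genes lay at these commonest ratios, 52 of 2740 for the 1.39, and 76 of 1404 and 77 of 1383 for the 0.527. The shRNA2 knockdown libraries also held values for genes that are silent in cortex: the mean over 1096 olfactory receptor genes was 0.672 and 0.557 FPKM there, at most 0.00817 FPKM in the shRNA2 controls and at most 0.00162 FPKM in the shRNA1 set.

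Across all genes, lying apart from the controls on the same side in both tables was not rare. Of the 10827 genes, 387 were above all controls in both tables (3.57%) and 823 were below all controls in both tables (7.6%), whereas 1401 were apart on opposite sides (12.9%). A narrower group of 83 genes (0.767%), 20 higher and 63 lower, lay alike in both tables and passed limma at an adjusted p under 0.05 in both sets. All 10 members were among those 83. In the shRNA1 set 1015 of 11291 genes tested passed limma (8.99%), and in the shRNA2 set 2971 of 12461 did (23.8%). The rule used the same contrast, so nothing is read from the members' calls. A replicate block in the fit raised the shRNA1 count to 2452 genes and Gje1 was no longer called there.

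**Figure D1:**
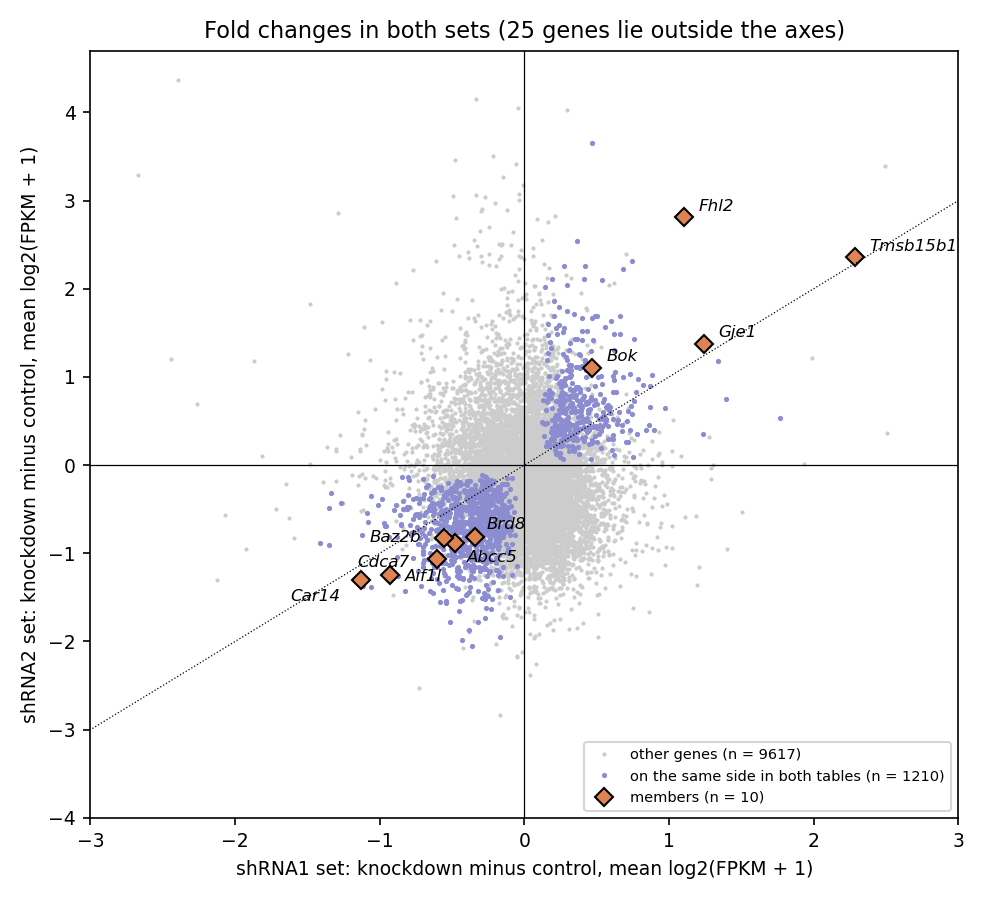
Difference of mean log2(FPKM + 1) between knockdown and control in the shRNA1 set (horizontal axis) and in the shRNA2 set (vertical axis) for 10827 genes. Grey points are genes that did not meet the rule, violet points the genes on the same side in both tables and diamonds the 10 members, and the dotted line marks equal differences. All members lie further from 0 in the shRNA2 set than in the shRNA1 set, and 25 genes lie outside the axes. The share of all genes that do so is not given here, so this is not read as a trait of the members.

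Among the 387 genes that were higher in both tables, ranked by the smaller of their fold changes, Tmsb15b1 stood at rank 1, Gje1 at rank 2, Fhl2 at rank 4 and Bok at rank 71. Among the 823 lower genes, Car14 stood at rank 1, Aif1l at rank 4, Cdca7 at rank 63, Baz2b at rank 100, Abcc5 at rank 163 and Brd8 at rank 368. The members thus include the top-ranked gene on each side as well as genes of middle rank.

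Fhl2 codes for a LIM-only adaptor protein that binds transcription factors and beta-catenin and also associates with the actin cytoskeleton. It was at 4.51, 5.01 and 2.82 FPKM in the shRNA1 controls and at 6.79, 12.9 and 10.6 FPKM with knockdown. With shRNA2 the controls were at 3.64 and 1.92 FPKM and the knockdown libraries at 27.0 and 22.9 FPKM. The groups did not overlap in either table, and the gap was wide in the shRNA2 set and narrow in the shRNA1 set, where knockdown replicate 10 lay nearest to control replicate 11. The knockdown mean was 2.46 times the control mean in the shRNA1 set (10.1 ± 3.11 against 4.11 ± 1.15 FPKM, SD, n = 3 and 3) and 8.98 times in the shRNA2 set (24.9 ± 2.91 against 2.78 ± 1.22 FPKM, SD, n = 2 and 2). The log2 fold change was 1.11 (SE 0.243) and 2.81 (SE 0.299), which made Fhl2 the member whose size differed most between the sets, by a factor of 2.54 on the log2 scale.

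Tmsb15b1 codes for a thymosin beta 15 peptide, one of the small proteins that bind actin monomers and keep them out of filaments. It was at 1.65, 5.31 and 2.04 FPKM in the shRNA1 controls and at 35.6, 13.9 and 9.85 FPKM with knockdown. The shRNA2 controls were at 6.0 and 8.55 FPKM and the knockdown libraries at 68.2 and 24.5 FPKM. Knockdown libraries were above all controls in both tables, and 1 library of each knockdown group, replicate 10 of the shRNA1 set and replicate 1 of the shRNA2 set, stood well above the rest of its group. The knockdown mean was 6.59 times the control mean in the shRNA1 set and 6.37 times in the shRNA2 set. The log2 fold change was 2.29 (SE 0.467) and 2.36 (SE 0.451), the most alike of the members' sizes between the sets, with a factor of 1.03. Leaving out 1 library at a time gave 1.78 to 2.67 in the shRNA1 set and 1.64 to 3.08 in the shRNA2 set. The coefficient of variation was 69.9% within the shRNA1 knockdown group and 66.6% within the shRNA2 one, the widest spread of any member.

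Reads of Tmsb15b1 are partly shared with its neighbours, so its values are uncertain. In the GENCODE annotation of GRCm38, Tmsb15l covers 49.2% of the exon bases of Tmsb15b1 on the same strand and Tmsb15b2 covers 22.8%. Of all 50-base windows of its transcripts, 59.2% occur letter for letter in Tmsb15l and 30.8% in Tmsb15b2. Tmsb15l was at 8.34, 12.3 and 11.3 FPKM in the shRNA1 controls and at 26.2, 15.7 and 14.0 FPKM with knockdown. Its shRNA2 values were 18.5 and 21.1 FPKM in controls and 34.4 and 27.8 FPKM in knockdown libraries. Tmsb15l did not pass the test (log2 fold change 0.72, SE 0.231, limma adjusted p = 0.0864 in the shRNA1 set, and 0.62, SE 0.225, adjusted p = 0.0859 in the shRNA2 set, where median-of-ratios rescaling brought it just under the threshold, to 0.04995). Tmsb15b2, which the naming rule did not select and which was chosen after its values were seen, had 0.73 (SE 0.216, limma adjusted p = 0.0695) and 0.39 (SE 0.266, limma adjusted p = 0.305). All 3 genes were higher in every knockdown library than in every control of its table, and in each table the same knockdown library was the highest for all 3. The part that shared reads have in the Tmsb15b1 values was not tested.

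**Figure D2:**
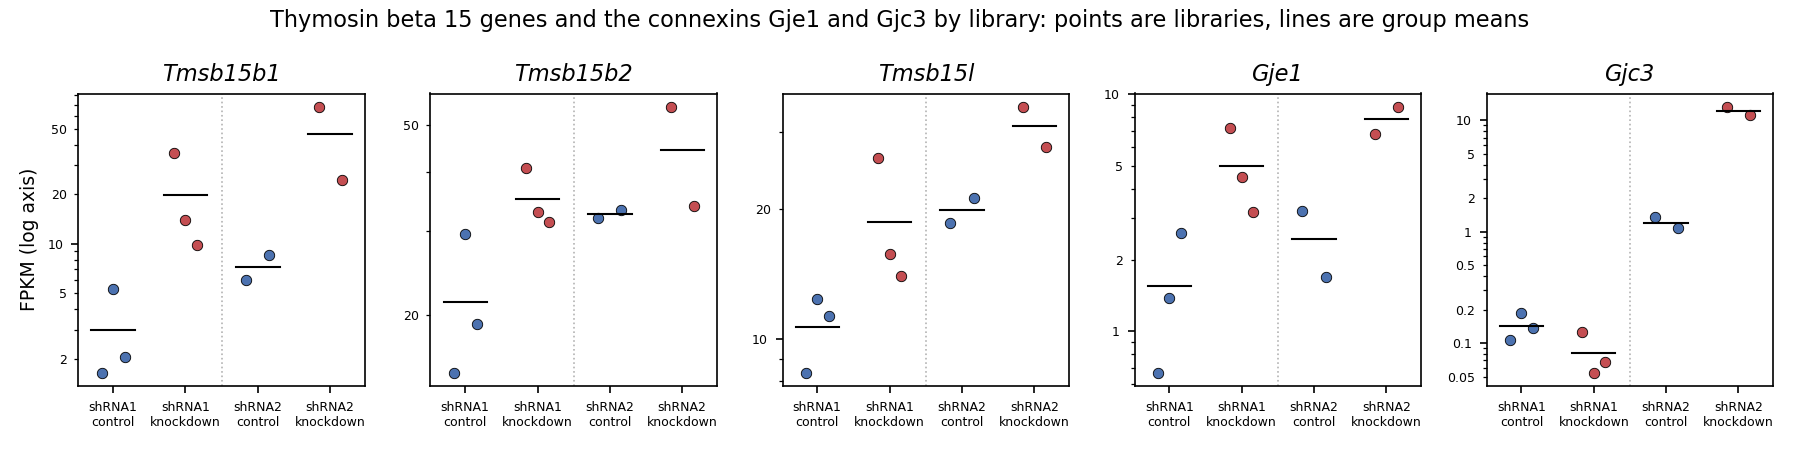
FPKM on a log axis, with its own range in each panel, for the thymosin beta 15 genes Tmsb15b1, Tmsb15b2 and Tmsb15l and for the connexins Gje1 and Gjc3. Each point is a library (blue, control; red, knockdown) and each line a group mean; the 3 thymosin genes share a highest knockdown library in each set, and Gjc3 stays under 0.2 FPKM throughout the shRNA1 set.

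The stretch before the Tmsb15b1 start is printed because this gene had the largest of the smaller fold changes. It is the 250 bases that end at the annotated start (RefSeq, GRCm38.p6, minus strand, chrX:136976875-136977124), written 5′ to 3′, and the capitals mark 2 CCAAT boxes (CCAAT) and a GC box (GGGCGG), each searched on both strands.
Tmsb15b1: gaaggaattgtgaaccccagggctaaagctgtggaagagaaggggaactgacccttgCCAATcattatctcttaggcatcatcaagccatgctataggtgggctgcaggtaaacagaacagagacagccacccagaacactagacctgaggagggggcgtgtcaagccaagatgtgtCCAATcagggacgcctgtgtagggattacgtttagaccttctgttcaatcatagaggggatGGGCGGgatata

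Gje1 codes for a small connexin known from the lens, where it is needed for fibre cell differentiation. It was the least abundant member, at 0.668, 1.39 and 2.60 FPKM in the shRNA1 controls and at 7.24, 4.49 and 3.19 FPKM with knockdown. Its shRNA2 controls were at 3.23 and 1.69 FPKM and the knockdown libraries at 6.81 and 8.86 FPKM. The groups stayed apart in both tables, but in the shRNA1 set only by the gap between knockdown replicate 12 and control replicate 12. The knockdown mean was 3.2 times the control mean in the shRNA1 set and 3.19 times in the shRNA2 set, with log2 fold changes of 1.24 (SE 0.318) and 1.38 (SE 0.311). With the olfactory receptor mean of each library subtracted, the shRNA2 value was 1.28. Of the 50-base windows of Gje1 transcripts, 4.40% occur in another gene. The summed level of the 6 lens and eye markers was 1.38 to 1.86 FPKM in shRNA2 controls and 2.34 to 5.85 FPKM in knockdown libraries. In the shRNA1 set it was 1.19 to 1.63 and 0.591 to 2.06 FPKM, and the single marker tested in each set did not pass limma. The crystallins Cryaa and Crybb2 were at 0 in every library. No background was subtracted from these marker sums, and the olfactory receptor mean was raised in the shRNA2 knockdown libraries. The part of lens cells in the Gje1 values was not tested.

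Bok codes for a BCL2 family protein that can permeabilize the outer mitochondrial membrane and is expressed in many tissues. It was at 46.9, 49.3 and 48.2 FPKM in the shRNA1 controls and at 65.9, 73.6 and 62.1 FPKM with knockdown. Its shRNA2 controls were at 29.8 and 18.3 FPKM and the knockdown libraries at 55.4 and 47.7 FPKM. Every knockdown library was above every control in both tables, and the shRNA1 controls were the tightest group of any member (coefficient of variation 2.53%). The knockdown mean was 1.40 times the control mean in the shRNA1 set (67.2 ± 5.86 against 48.1 ± 1.22 FPKM, SD, n = 3 and 3) and 2.14 times in the shRNA2 set (51.5 ± 5.42 against 24.0 ± 8.18 FPKM, SD, n = 2 and 2). Bok had a log2 fold change of 0.47 (SE 0.0857) and 1.10 (SE 0.273).

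**Figure D3:**
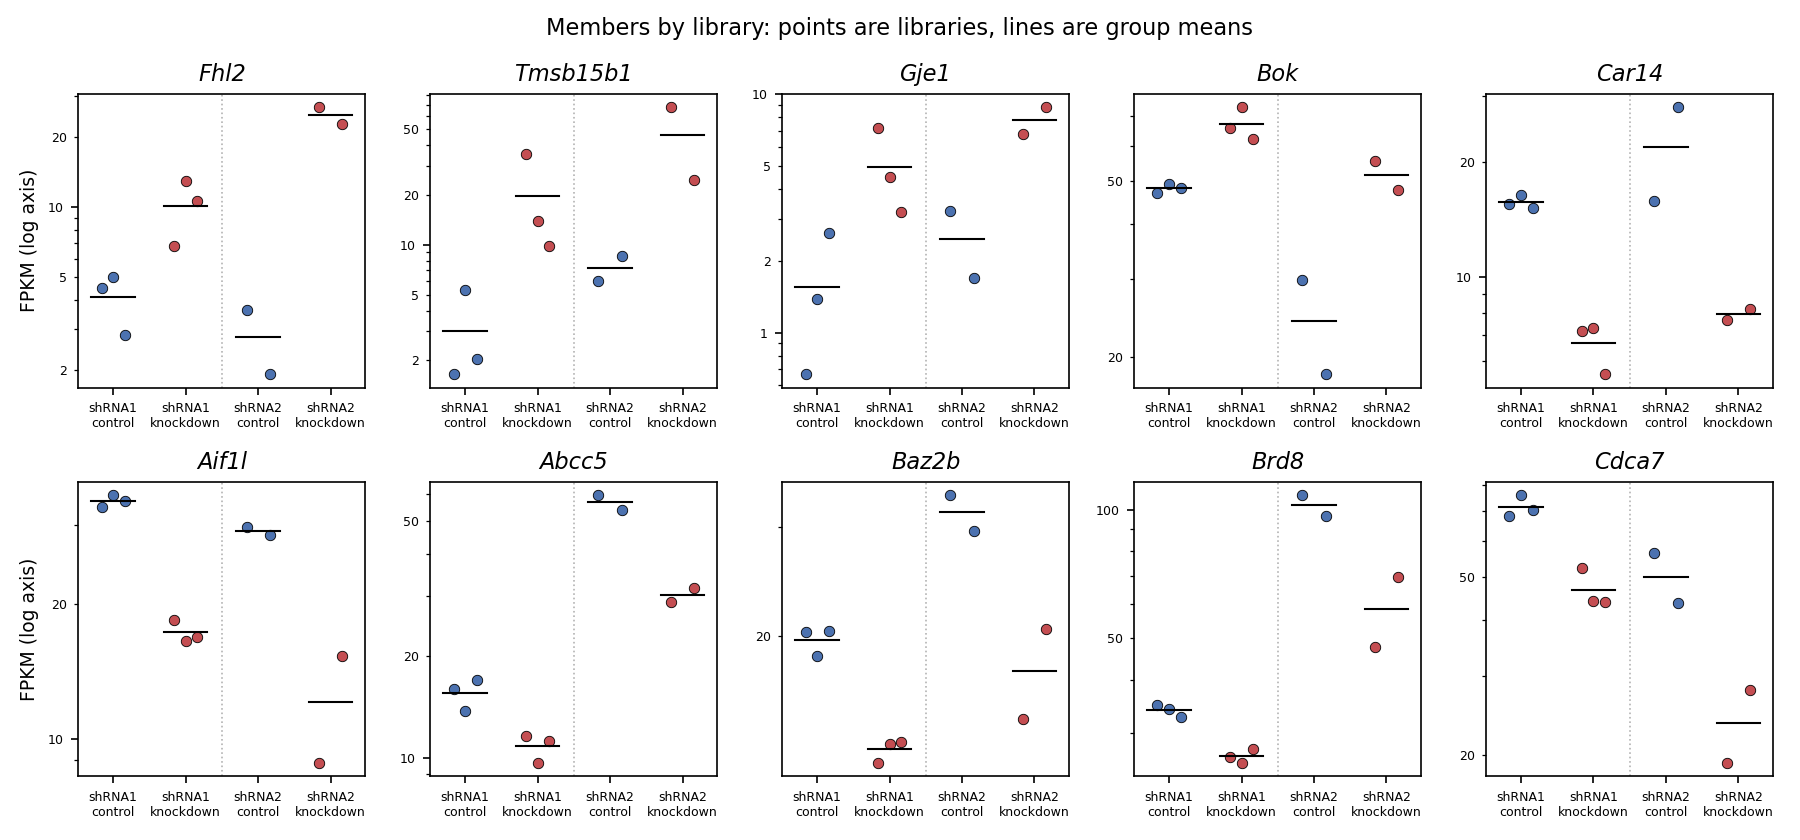
FPKM of each member in every library, on a log axis with its own range in each panel; points are libraries (blue, control; red, knockdown), lines are group means, and the dotted line parts the shRNA1 set from the shRNA2 set. In the top row the knockdown points of Fhl2, Tmsb15b1, Gje1 and Bok lie above the controls of their set, and in Car14 and the bottom row they lie below them.

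Car14 codes for a membrane-bound carbonic anhydrase, an enzyme that interconverts carbon dioxide and bicarbonate at the outer cell surface. It was at 15.6, 16.4 and 15.2 FPKM in the shRNA1 controls and at 7.19, 7.31 and 5.53 FPKM with knockdown. The shRNA2 controls were at 15.8 and 28.0 FPKM and knockdown libraries at 7.69 and 8.23 FPKM. Every knockdown library was well below every control in both tables, with most of the shRNA2 spread among the controls. The knockdown mean was 42.5% of control in the shRNA1 set and 36.3% in the shRNA2 set. The log2 fold change was −1.13 (SE 0.120) and −1.30 (SE 0.306), the lowest of the members in both sets. In the annotation, 17.5% of the Car14 exon bases overlap Aph1a, a gamma-secretase subunit gene on the opposite strand, and whether reads were counted by strand is not given in the sources used here. Aph1a, chosen after its values were seen, did not pass the test in either set (log2 fold change 0.25, limma adjusted p = 0.387 in the shRNA1 set, and 0.47, limma adjusted p = 0.331 in the shRNA2 set).

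Aif1l codes for an actin-binding protein that is the paralog of the microglial marker Aif1 but is expressed in other cells. It was at 32.7, 34.8 and 33.9 FPKM in the shRNA1 controls and at 18.4, 16.5 and 16.9 FPKM with knockdown. The shRNA2 values were 29.7 and 28.4 FPKM in controls and 8.88 and 15.3 FPKM in knockdown libraries. Control libraries varied little in both tables (coefficient of variation 3.09% and 3.08%), and the lowest control stood far above the highest knockdown library each time. Knockdown means were 51.1% of control in the shRNA1 set (17.3 ± 1.01 against 33.8 ± 1.05 FPKM, SD, n = 3 and 3) and 41.7% in the shRNA2 set (12.1 ± 4.56 against 29.0 ± 0.894 FPKM, SD, n = 2 and 2). The log2 fold change was −0.93 (SE 0.0827) and −1.24 (SE 0.286). Aif1 itself averaged 0.695 FPKM in the shRNA1 controls and 0.529 FPKM in the knockdown libraries, far under Aif1l, and 1.06 and 1.25 FPKM in the shRNA2 set (log2 fold change 0.25, limma adjusted p = 0.676). The microglial marker sum was higher in the shRNA2 knockdown libraries. The sum was 2.31 to 7.0 FPKM in shRNA2 controls and 14.8 to 30.8 FPKM in knockdown libraries, those with the raised olfactory receptor mean. There 5 of 7 tested markers rose, beside 23.8% called over all genes in that set. The ranges of the sum overlapped in the shRNA1 set (2.99 to 9.48 against 2.07 to 7.11 FPKM). Aif1l was lower in the knockdown libraries of both sets, and none of the 8 microglial markers was at 0 in every library.

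The 250 bases before the Aif1l start (RefSeq, GRCm38.p6, plus strand, chr2:31950053-31950302) are printed because they hold the letters CTTTGAT of a TCF/LEF motif, the factors through which beta-catenin acts. Capitals mark this motif and the GC boxes (GGGCGG), both searched on either strand.
Aif1l: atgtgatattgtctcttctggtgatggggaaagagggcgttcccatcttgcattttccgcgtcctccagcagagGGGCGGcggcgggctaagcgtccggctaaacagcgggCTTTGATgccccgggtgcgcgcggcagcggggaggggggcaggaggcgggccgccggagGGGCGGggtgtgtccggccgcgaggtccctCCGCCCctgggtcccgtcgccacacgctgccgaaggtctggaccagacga
The TCF/LEF letters lie at position −139 relative to the start, and 3.73% of all 32851 windows in the RefSeq table hold them.

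Abcc5 codes for an ABC transporter that exports cyclic nucleotides and other organic anions. It was at 15.9, 13.8 and 17.0 FPKM in the shRNA1 controls and at 11.6, 9.70 and 11.2 FPKM with knockdown. The shRNA2 controls were at 59.3 and 53.8 FPKM and the knockdown libraries at 28.8 and 31.7 FPKM. Groups did not overlap in either table, and the shRNA1 gap, between knockdown replicate 10 and control replicate 11, was among the narrowest. Knockdown means were 69.7% of control in the shRNA1 set and 53.5% in the shRNA2 set, with log2 fold changes of −0.48 (SE 0.115) and −0.88 (SE 0.202). After rescaling the columns by the median of ratios, the shRNA2 value was −0.71, a move of more than the spread between its replicates.

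Baz2b and Brd8 both carry a bromodomain, the module that reads acetylated histones. Baz2b belongs to the BAZ family, which pairs with ISWI remodelers, and was at 20.3, 18.6 and 20.4 FPKM in the shRNA1 controls and at 12.5, 13.4 and 13.5 FPKM with knockdown. Its shRNA2 controls were at 33.7 and 29.6 FPKM and the knockdown libraries at 14.7 and 20.5 FPKM. The knockdown libraries formed a tight group below the controls in the shRNA1 set and a looser one in the shRNA2 set. Baz2b means were 66.6% and 55.7% of control, with log2 fold changes of −0.55 (SE 0.0883) and −0.83 (SE 0.244).

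Brd8 is a subunit of the TIP60/NuA4 acetyltransferase complex. It was at 34.8, 34.2 and 32.7 FPKM in the shRNA1 controls and at 26.4, 25.6 and 27.5 FPKM with knockdown. The shRNA2 controls were at 108 and 96.8 FPKM and knockdown libraries at 47.8 and 69.5 FPKM. The shRNA1 groups were separated by little but varied even less, with coefficients of variation of 3.26% in controls and 3.62% in knockdown libraries. Brd8 had the smallest shRNA1 change of the members, to 78.2% of control (log2 fold change −0.34, SE 0.0771), and stood at 57.3% of control in the shRNA2 set (−0.81, SE 0.239).

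Cdca7 codes for a zinc finger protein that recruits the remodeler HELLS to chromatin, supports the maintenance of DNA methylation and is known as a MYC and E2F target of dividing cells. It was at 68.4, 75.8 and 70.2 FPKM in the shRNA1 controls and at 52.2, 44.1 and 43.8 FPKM with knockdown. The shRNA2 controls were at 56.4 and 43.6 FPKM and the knockdown libraries at 19.3 and 27.9 FPKM. Each knockdown library was below each control of its table, with the least separated pair in the shRNA1 set being knockdown replicate 10 and control replicate 10. Cdca7 means were 65.4% of control in the shRNA1 set (46.7 ± 4.79 against 71.5 ± 3.89 FPKM, SD, n = 3 and 3) and 47.2% in the shRNA2 set (23.6 ± 6.13 against 50.01 ± 9.04 FPKM, SD, n = 2 and 2). Cdca7 had a log2 fold change of −0.61 (SE 0.0943) and −1.06 (SE 0.259). Markers of dividing progenitors moved with Cdca7 in part, mainly in the shRNA1 set. Of 10 radial glia markers, 6 fell and none rose in the shRNA1 set, beside 8.99% called over all genes. In the shRNA2 set 2 fell and none rose, a share near the 23.8% called over all genes. The summed levels of these markers overlapped between the groups in both sets (1200 to 1548 against 993 to 1542 FPKM, and 1807 to 1834 against 1032 to 2188 FPKM). Of 7 intermediate progenitor markers, 3 fell in the shRNA1 set, where the sums were 867 to 959 FPKM in controls and 595 to 658 FPKM in knockdown libraries, and in the shRNA2 set 2 rose and 2 fell. None of these markers was at 0 in every library. Their part in the Cdca7 values was not tested.

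The 250 bases before the Cdca7 start (RefSeq, GRCm38.p6, plus strand, chr2:72475969-72476218) are printed because Cdca7 alone among the 8 members with a RefSeq window had the E2F letters TTTCCCGC in its window, here on the reverse strand. Capitals mark that motif and a GC box (GGGCGG).
Cdca7: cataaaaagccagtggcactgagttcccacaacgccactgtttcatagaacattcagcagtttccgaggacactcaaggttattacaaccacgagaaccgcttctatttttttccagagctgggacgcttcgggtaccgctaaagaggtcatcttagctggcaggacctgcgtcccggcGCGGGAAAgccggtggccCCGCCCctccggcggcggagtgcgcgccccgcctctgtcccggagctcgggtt
The E2F letters lie at position −71 relative to the start, and 1.07% of all 32851 windows hold them on either strand.

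RefSeq start windows, from 250 bases before to 50 bases after the start, were matched by symbol for 8 of the 10 members, in 9 windows. Their median GC content was 59.3% (41.7% to 67.7%) against 52.7% over all 32851 windows, and their median number of CpG sites was 16 against 7. The 32851 windows were not limited to genes that reached 1 FPKM, as the members did. This background and the motif shares below are thus not matched for expression. The GC box GGGCGG was in the windows of 5 members (Fhl2, Bok, Aif1l, Cdca7 and Tmsb15b1) and in 35.7% of all windows, and CCAAT was in those of 3 (Fhl2, Baz2b and Tmsb15b1) and in 37.4% of all windows. TATAAA was in windows of Fhl2 and Baz2b and in 13.6% of all windows, and the NRF1 motif (GCGC, any base, TGCGC) was in that of Abcc5 and in 4.6% of all windows. No member window held CCGGAAG (ETS, 8.86% of all windows), CACGTG (E-box, 7.15%) or TTTGGCGC (an E2F variant, 0.514%). All motifs were searched on both strands. No motif was present in every member window, nor in every window of the higher or of the lower genes.

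Among controls the 4 higher members varied more than the 6 lower ones, with median coefficients of variation of 45.5% and 4.61% in the shRNA1 set and 38.9% and 8.44% in the shRNA2 set, although Car14, a lower member, reached 39.5% in the shRNA2 controls. Among knockdown libraries the medians were 36.1% and 7.61% in the shRNA1 set, and in the shRNA2 set the order was the other way round, with 15.1% for the higher and 24.7% for the lower members. By control level, Gje1 stood at percentile 5.05 of the genes tested in the shRNA1 set, Tmsb15b1 at 14.4 and Fhl2 at 20.3, whereas Bok stood at 80.6 and Cdca7 at 86.8. In the shRNA2 set Gje1 stood at 22.6, Tmsb15b1 at 43.6 and Fhl2 at 24.4. On the log2(FPKM + 1) scale all 10 members changed more in the shRNA2 set, by factors of 1.03 (Tmsb15b1) to 2.54 (Fhl2). The ratio of mean FPKM was instead slightly larger in the shRNA1 set for Tmsb15b1 (6.59 against 6.37) and Gje1 (3.20 against 3.19). The share of all genes that changed more in the shRNA2 set is not given here. The larger shRNA2 change is therefore not read as a trait of the members. The median log2 fold change was 1.17 for the higher and −0.58 for the lower members in the shRNA1 set, and 1.87 and −0.97 in the shRNA2 set. Over all genes tested the median was 0.02 in the shRNA1 set and −0.15 in the shRNA2 set, and median-of-ratios rescaling of the columns brought the latter to 0.01. The difference in size between the sets was not tested, because hairpin, batch and table change together.

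The rule depends on the closest pair of libraries, so its edge is a matter of small gaps. On the log2 scale the nearest knockdown and control libraries were 0.22 apart for Gje1 and 0.22 for Abcc5, both in the shRNA1 set. These were the members nearest to the edge, but other genes that met the rule lay closer to it. Tmsb15b2, for example, had a gap of 0.029 in the shRNA2 set. The genes just outside were drawn from all genes at 1 FPKM in both tables, not from the members. They were Siva1, an apoptosis factor gene, with an overlap of −5.09e-05 and Vcam1, an adhesion molecule gene, with −0.000124, both in the shRNA2 set. Their fold changes were −0.46 and −0.29 for Siva1 and −0.35 and −0.69 for Vcam1 in the shRNA1 and the shRNA2 set.

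The genes whose pattern was most like each member were found by the Pearson correlation of log2(FPKM + 1), centred within each set, over the 10 libraries. These correlations hold the knockdown difference that chose the members and are a description. The closest were Dnajb3 (0.98) and 9430083A17Rik (0.98) for Fhl2, Tmsb15l (0.96) and Rnf113a1 (0.95) for Tmsb15b1, Gm13157 (0.92) and Ctsf (0.89) for Gje1, and Rab1b (0.98) and Twf2 (0.98) for Bok. For the lower members they were 2810468N07Rik (0.97) and Rcn1 (0.97) for Car14, Tagap1 (0.99) and Prpf39 (0.98) for Aif1l, and Ints9 (0.99) and Dtl (0.99) for Abcc5. They were Epb4.1l5 (0.99) and Fstl1 (0.98) for Baz2b, Tmem161b (0.99) and Snap23 (0.98) for Brd8, and Bbx (0.99) and Cdc7 (0.99) for Cdca7. Gje1, the least abundant member, had the loosest likeness to any other gene.

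Relatives and complex partners of the members were read from 9 lists, members left out, with limma's test adjusted over all genes. The list around Cdca7, of CDCA genes and genes of DNA methylation maintenance, held falls and no rises in both sets. In the shRNA1 set 4 of 12 tested genes fell (Cdca3, Cdca5, Cdca7l and Dnmt3a) and none rose, and in the shRNA2 set 6 of 11 fell (Cdca2, Cdca3, Cdca4, Cdca8, Dnmt1 and Uhrf1) and none rose, shares of 33.3% and 54.5% beside 8.99% and 23.8% over all genes. The list median was −0.35 in the shRNA1 set and −0.83 in the shRNA2 set, beside medians of 0.02 and −0.15 over all genes tested. Cdca3, which codes for a trigger of mitotic entry, was the single gene of all 9 lists to be called in both sets without a replicate block. With the block, Cdca2 was called in both sets too (limma adjusted p = 0.0354 and 0.0248). Cdca3 was at 56.2, 66.6 and 51.5 FPKM in shRNA1 controls and at 37.5, 30.3 and 36.5 FPKM in knockdown libraries (log2 fold change −0.72, SE 0.121, limma adjusted p = 0.0197), and no library overlapped. Its shRNA2 values were 50.6 and 39.2 FPKM in controls and 27.4 and 22.1 FPKM in knockdown libraries (−0.83, SE 0.235, limma adjusted p = 0.0428). Leaving out shRNA1 control replicate 10 (limma adjusted p = 0.0506) or knockdown replicate 11 (0.0719) ended the shRNA1 call, and leaving out any library of the shRNA2 set, control 1 (0.222), control 2 (0.0926), knockdown 1 (0.125) or knockdown 2 (0.156), ended the other, as did rescaling by the median of ratios (0.0934). The de novo methyltransferase gene Dnmt3a fell in the shRNA1 set (−0.73, SE 0.112, limma adjusted p = 0.0167, and 0.0626 without knockdown replicate 11) and had the same log2 fold change of −0.73 in the shRNA2 set without passing (limma adjusted p = 0.0746). The Cdca5 call was lost without control replicate 10 or 12 or knockdown replicate 11 or 12 (limma adjusted p = 0.0559 to 0.0927), and the Cdca2 call without control replicate 1 or either knockdown replicate (0.068 to 0.125). Hells, the partner of Cdca7, did not pass in either set (−0.37, limma adjusted p = 0.0658, and −0.56, limma adjusted p = 0.175); it and the genes named here by count only were chosen after their values were seen.

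The chromatin lists held fewer calls. Of 13 ISWI partners and BAZ proteins, 1 fell in the shRNA1 set (Bptf, the large NURF subunit, log2 fold change −0.55, SE 0.125, limma adjusted p = 0.0377) and 3 fell in the shRNA2 set (Smarca1, Smarca5 and Rsf1), and none rose. These shares, 7.69% and 23.1%, lie near the 8.99% and 23.8% called over all genes. Bptf had −0.64 in the shRNA2 set (limma adjusted p = 0.0821). The Bptf call was lost without control replicate 10 (limma adjusted p = 0.0744) or 12 (0.101), or without knockdown replicate 10 (0.115), 11 (0.134) or 12 (0.051). The catalytic subunit genes Smarca1 and Smarca5 had −1.01 and −1.15 in the shRNA2 set but 0.06 and 0.01 in the shRNA1 set, where Baz2b had −0.55. Of 16 tested TIP60/NuA4 genes, the complex of Brd8, none passed in the shRNA1 set by limma. None had an unadjusted p under 0.05 there, beside 3389 of 11291 genes tested. In the shRNA2 set Actl6a (−0.68) and Mbtd1 (−1.12) fell, a share of 12.5% called beside 23.8% over all genes. There 10 of the 16 had an unadjusted p under 0.05, beside 4884 of 12461 genes tested. The list median was 0.07 in the shRNA1 set and −0.39 in the shRNA2 set.

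Families of the other members gave no gene called in both sets without a replicate block, and with it Twf2 (limma adjusted p = 0.0135 and 0.0207) and Pmaip1 (0.0288 and 0.0172) were called as higher in both. Among connexins and pannexins, Gja1, the main connexin of radial glia, fell in the shRNA1 set (log2 fold change −0.70, SE 0.165, limma adjusted p = 0.0407) and had −0.97 in the shRNA2 set without passing (limma adjusted p = 0.071), both values on the other side from Gje1. That call was lost without control replicate 10 (limma adjusted p = 0.102), 11 (0.0527) or 12 (0.0863), or without knockdown replicate 11 (0.141) or 12 (0.095). In the shRNA2 set Gjc3 and Panx3 rose and Gjc1 fell, of 5 tested, and the Gjc1 call was lost without any one of the 4 libraries (limma adjusted p = 0.0564 to 0.0952). Gjc3, a connexin of glia, was at 1.35 and 1.07 FPKM in shRNA2 controls and at 13.2 and 11.1 FPKM in knockdown libraries (2.57, limma adjusted p = 0.00138), and at no more than 0.186 FPKM in the shRNA1 set. Gje1, in contrast, was above the controls in both sets. Among carbonic anhydrases, 6 of 8 tested rose in the shRNA2 set (Car3, Car5a, Car5b, Car8, Car10 and Car11) and Car15 fell. The share called was 87.5%, beside 23.8% over all genes. The Car11 call was lost without knockdown replicate 1 or either control. The 6 that rose had shRNA2 control means of 0.0567 to 2.15 FPKM and knockdown means of 2.05 to 8.42 FPKM, in the libraries with the raised olfactory receptor mean of 0.672 and 0.557 FPKM. In the shRNA1 set neither of the 2 tested passed by limma. Neither had an unadjusted p under 0.05, beside 3389 of 11291 genes tested. Car14 stood on the other side, lower in both sets.

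Of 11 tested BCL2 family genes, Bcl2l12 fell in the shRNA1 set (log2 fold change −0.59, SE 0.141, limma adjusted p = 0.0411) and none rose. Of 13 tested in the shRNA2 set, Bbc3 (1.01) and Pmaip1 (1.48), both p53-induced activators of apoptosis, rose and none fell. The shares called, 9.09% and 15.4%, are near or below the 8.99% and 23.8% over all genes. Pmaip1 had 0.66 in the shRNA1 set (limma adjusted p = 0.0514), on the side of Bok, and passed there with the replicate block (0.0288) and with limma without trend. The Bcl2l12 call was lost without control replicate 10 (limma adjusted p = 0.0623) or 12 (0.111), or without knockdown replicate 10 (0.111), 11 (0.147) or 12 (0.0571), and the shRNA2 Pmaip1 call was lost without knockdown replicate 1 (0.127) or 2 (0.167) or control replicate 1 (0.159). Among LIM-only genes related to Fhl2, Csrp2 (0.70) rose and Fhl3 (−0.63) fell in the shRNA1 set, and Crip1 (1.56) rose in the shRNA2 set, of 11 tested in each. The shares called were 18.2% and 9.09%, beside 8.99% and 23.8% over all genes. Fhl1, a close relative of Fhl2, did not pass in either set (−0.30, limma adjusted p = 0.0608 and 0.0292 with the replicate block, and −0.59, limma adjusted p = 0.115), both values on the other side from Fhl2. Among actin-binding genes, Pfn2 (0.43) rose in the shRNA1 set, of 22 tested. With shRNA2, Pfn2 lay below all controls without passing (−0.90, limma adjusted p = 0.111). In the shRNA2 set Twf2 (1.2) rose and Cap1 (−0.95) and Twf1 (−1.16) fell, of 24 tested. The Twf2 call was lost without control replicate 2 or either knockdown replicate. The shares called, 4.55% and 12.5%, lie below the 8.99% and 23.8% over all genes. Of 3 tested ABCC transporters other than Abcc5, none passed by limma in either set, and none had an unadjusted p under 0.05. Over all genes tested, 3389 of 11291 had such a p in the shRNA1 set and 4884 of 12461 in the shRNA2 set.

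**Figure D4:**
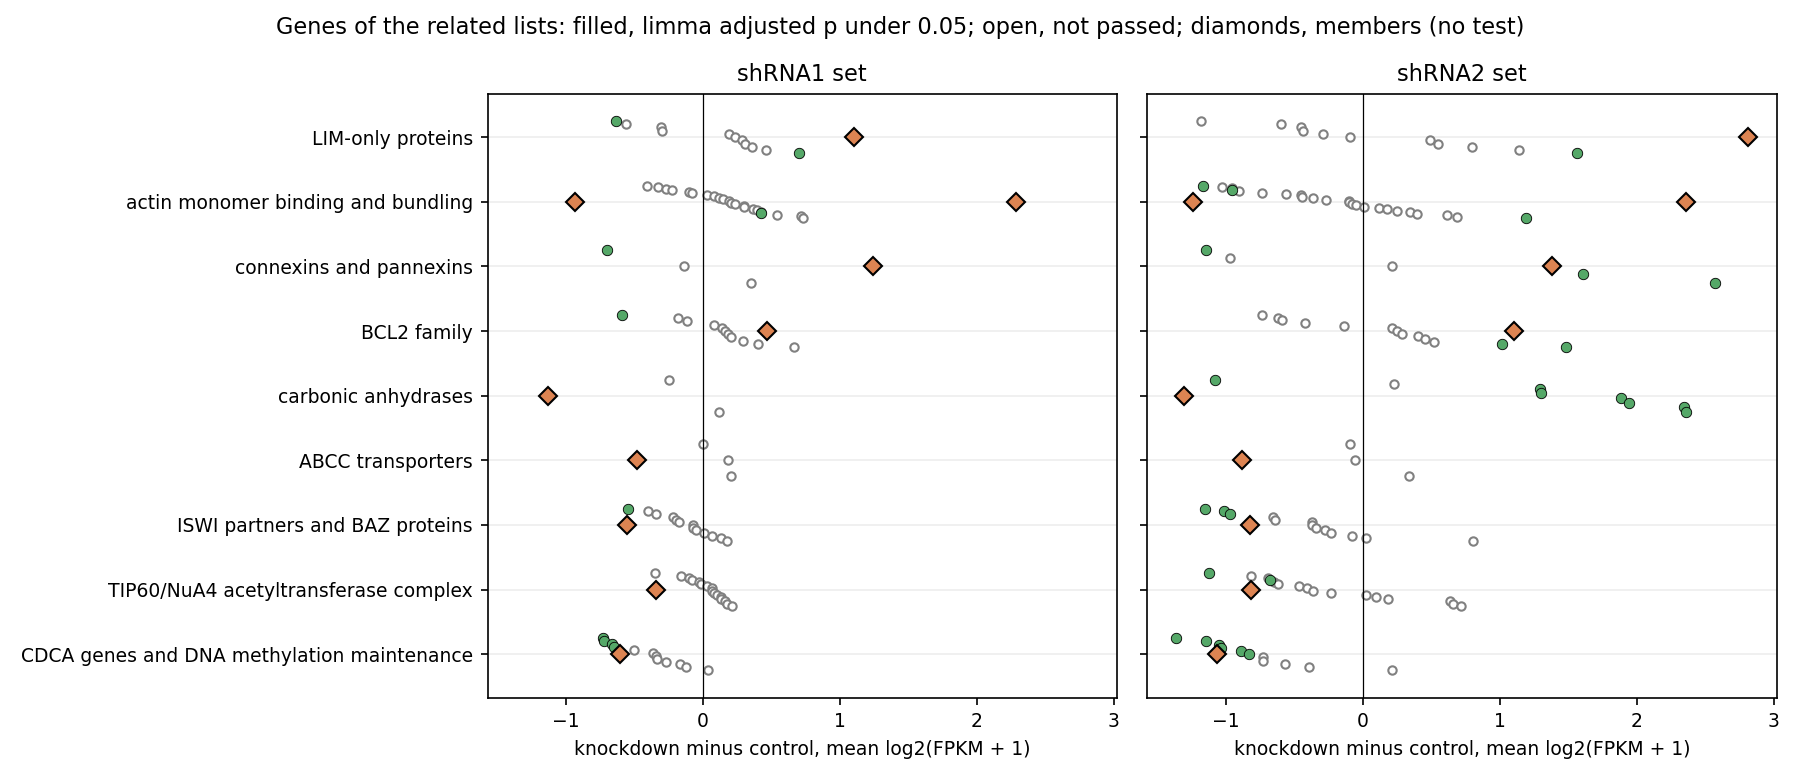
Difference of mean log2(FPKM + 1) between knockdown and control for the tested genes of 9 lists in the shRNA1 set (left) and the shRNA2 set (right). Filled circles passed limma at an adjusted p under 0.05, open circles did not, and diamonds are the members, which have no test; the CDCA list lies mostly left of 0 in both sets, and the carbonic anhydrases lie mostly right of 0 in the shRNA2 set while Car14 lies left.

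Several cell type markers moved with knockdown, in part on different sides in the sets. Radial glia markers, given beside Cdca7, fell in both sets where they passed, 6 of 10 and 2 of 10. Over all genes tested, 8.99% were called in the shRNA1 set and 23.8% in the shRNA2 set, so the shRNA2 count lies near that share. The summed level of the 9 postmitotic neuron markers found, of 10, was 2198 to 2539 FPKM in shRNA1 controls and 3022 to 3690 FPKM in knockdown libraries, with 3 markers that rose, whereas in the shRNA2 set it was 3976 to 4543 FPKM in controls and 2792 to 3010 FPKM in knockdown libraries, with 4 that fell. Oligodendrocyte precursor markers, which summed to at most 1.97 FPKM in any library, were lower in shRNA1 and higher in shRNA2 knockdown libraries. Interneuron markers were lower in the shRNA1 knockdown libraries (9.18 to 9.29 against 18.6 to 27.6 FPKM, 5 of 5 tested fell) and overlapped in the shRNA2 set. Erythroid markers summed to 150 to 281 FPKM in shRNA1 controls and 23.6 to 115 FPKM in knockdown libraries, and overlapped in the shRNA2 set. Endothelial sums overlapped in both sets, and the meningeal and choroid plexus sums were higher in knockdown libraries of the shRNA2 set only. Choroid plexus markers nonetheless summed to 44.5 FPKM in shRNA1 knockdown replicate 10, the library with the most Tmsb15b1 and Gje1 in its group. With shRNA2 knockdown, 5 oligodendrocyte precursor markers summed to 1.34 to 1.91 FPKM and 6 meningeal markers to 1.62 to 1.93 FPKM. The 5 choroid plexus markers summed to 3.95 to 6.12 FPKM there. In the same libraries the mean per olfactory receptor gene was 0.672 and 0.557 FPKM, and no background was subtracted from the sums. The part of cell composition in each set's values was not tested.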

How the data were processed

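The labels' protocols name the RNeasy Plus kit for RNA extraction and a Clontech kit for low RNA input for the libraries. The submitters' processing notes name TopHat2, Bowtie, Cufflinks 2.0.0, Cuffdiff and the build mm9; annotation, read filters and strand setting were not given in the sources used here. The authors deposited FPKM values, 1 column per library, in 2 tables made separately. Sequencing depth is unknown, and no count test was run.

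Within each table, genes whose mean reached 1 FPKM were fitted on the log2(FPKM + 1) scale by limma 3.58.1 (R 4.3.3, two-sided, trend; residual degrees of freedom 4 for shRNA1, 2 for shRNA2), with Benjamini-Hochberg adjustment over all genes tested. Fold changes on this scale understate the change of low genes. Replicates are separate pools of embryos, per the design text.

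The members, gene lists and naming rule were chosen with earlier results of these data known. Named genes are the members, Chd8, list genes called in both sets and up to 3 more per list with the smallest larger adjusted p, the 2 closest genes per member by correlation, and the 2 genes just outside the rule. Same-numbered shRNA1 libraries deviated together from their group means (correlations 0.12, 0.24 and 0.19, each library closest to its own number). In the shRNA2 set the correlation was −0.03. The main fit did not use this pairing, so SE and adjusted p values leave it out unless the replicate block is named. The block was fitted as an alternative only. Alternatives were a replicate block, another pseudocount (0.1), no filter or a filter at 5 FPKM, median-of-ratios rescaling, limma without trend, subtraction of the olfactory receptor mean, and leaving out each library. RefSeq promoter windows (GRCm38.p6) were matched by symbol; no exon or promoter coordinate was moved between builds.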

Additional observations from a re-analysis of the deposited data

Results flagged for a closer look

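Each of the 4 genes below is a relative or complex partner of a member that, unlike the members, lay apart from the controls on opposite sides in the 2 sets, with every knockdown library above every control in one set and below in the other. The 4 were drawn from the named genes only, and other list genes lay on opposite sides too, such as Lmo3 (0.29 and −1.18) and Pfn2 (0.43 and −0.90). The difference was not tested for any of them, and 12.9% of all genes lay on opposite sides. Csrp1, a LIM-only gene, had a log2 fold change of −0.56 in the shRNA1 set and 0.80 in the shRNA2 set, a difference of −1.36. Dstn, an actin-depolymerizing factor gene, had 0.36 and −0.56, a difference of 0.92. Bcl2l1, an anti-apoptotic BCL2 family gene, had 0.18 and −0.62, a difference of 0.80. Rbbp4, a histone chaperone gene, had 0.17 and −0.37, a difference of 0.54.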

How the results depend on the processing

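Of 170 member fold changes recomputed under alternatives, all 170 kept their direction and 168 stayed within 1 SD of the replicates. The other 2 were shRNA2 Fhl2 with a pseudocount of 0.1 (3.18) and shRNA2 Abcc5 with median-of-ratios rescaling (−0.71). For most of the 170 the rule fixed the direction in advance. Leaving out a library, another pseudocount or the block cannot reverse it when all knockdown libraries lie on 1 side of all controls. Only median-of-ratios rescaling and the subtraction could have done so. In the shRNA1 set 1015 genes were called, 2452 with the replicate block, 470 with no filter and 88 to 1883 with 1 library left out (88 without knockdown replicate 11, 1883 without control replicate 11). In the shRNA2 set 2971 were called, 1602 with the filter at 5 FPKM and 713 to 1247 with 1 library left out, where the lone library is assumed to vary like the other group; the block gave 2719. The called genes were higher in 55.2% of shRNA2 calls, in 74.3% after median-of-ratios rescaling, 84.4% with no filter, 31.3% with the filter at 5 FPKM and 40.8% with the olfactory receptor mean subtracted, an alternative for the counts chosen after seeing the data. Genes alike in both tables numbered 1210, and 1353 to 1976 with 1 library left out (1976 without shRNA1 control replicate 11); 32.0% were higher, 40.9% after median-of-ratios rescaling and 25.2% with the subtraction. In the shRNA1 set Gje1 did not pass the filter at 5 FPKM. Median-of-ratios rescaling and the subtraction, the alternatives that can change the order of libraries, left all 10 members on their side in both tables; leaving out a library cannot break the rule. Members called ranged from 2 to 10 in the shRNA1 set and 1 to 10 in the shRNA2 set over the alternatives. With the block, Fhl1, Csrp1, Twf2, Dstn, Pmaip1, Pole3 and Cdca2 became called in the shRNA1 set, which put Cdca2, Twf2 and Pmaip1 among the calls of both sets, and no named list gene lost its call. The causes were not tested.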
